A study of Mus musculus with 12 samples.

Results

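The 10 genes described here are p53 (Trp53), its ubiquitin ligase Mdm2, the inhibitors of cyclin-dependent kinases (CDKs) Cdkn1a, Cdkn1b, Cdkn2a, Cdkn2b and Cdkn2c, and the D cyclins Ccnd1, Ccnd2 and Ccnd3. They were chosen by name, and all 10 were measured, among 25128 genes and targets in all. RNA came from 3 untreated mouse lines grown in the same serum-containing medium, with 4 plates of each grown to confluence and extracted separately, and 1 single-color NimbleGen array per plate. AtT20 is a line from a pituitary corticotroph tumor, BV2 is a microglial line and N18 is a neuroblastoma line. Each line stands for 1 established culture, so that a difference between lines is a difference between these cultures, and RNA of a whole plate does not tell fewer expressing cells from less RNA per cell. The genotype of Trp53 or of the Cdkn2a locus in these lines was not measured.

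p53 is a transcription factor that is stabilized after DNA damage and other stress, and it drives Cdkn1a, whose product p21 inhibits CDKs, and Mdm2, whose product marks p53 for degradation and so closes a feedback loop. The Ink4 inhibitors (p16 from Cdkn2a, p15 from Cdkn2b and p18 from Cdkn2c) bind Cdk4 and Cdk6, while the Cip/Kip inhibitors p21 and p27 (Cdkn1b) bind cyclin-CDK complexes. A different reading frame of Cdkn2a gives Arf, which binds Mdm2 and frees p53. D cyclins are induced by growth signals and activate Cdk4 and Cdk6, which phosphorylate the retinoblastoma protein and release E2F factors, and the loss of Ink4 or p53 function is common in lines that grow without limit.

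Trp53 and Mdm2 form this loop, and Cdkn1a is driven by p53. These genes were all higher in BV2 and N18 than on the plates of the third line, so the sequences upstream of their annotated starts are shown. They were taken from RefSeq (GRCm38.p6), each with the 250 bases before a start, 5′ to 3′ on the strand of the gene, and the capitals mark the consensus half-site of p53. The windows are chr11:69580109-69580358 (plus strand) for Trp53, chr10:117710759-117711008 (minus strand) for Mdm2, and chr17:29090729-29090978 (plus strand) for the more upstream start of Cdkn1a.
Trp53: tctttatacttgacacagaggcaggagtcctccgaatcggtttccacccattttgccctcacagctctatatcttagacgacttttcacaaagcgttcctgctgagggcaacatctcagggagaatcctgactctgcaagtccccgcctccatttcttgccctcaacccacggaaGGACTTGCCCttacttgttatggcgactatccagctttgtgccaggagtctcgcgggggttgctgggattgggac
Mdm2: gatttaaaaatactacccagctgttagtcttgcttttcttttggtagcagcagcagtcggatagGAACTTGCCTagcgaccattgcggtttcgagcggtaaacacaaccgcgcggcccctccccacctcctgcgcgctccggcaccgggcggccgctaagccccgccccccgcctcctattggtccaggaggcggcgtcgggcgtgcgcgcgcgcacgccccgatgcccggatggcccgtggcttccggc
Cdkn1a, upstream start: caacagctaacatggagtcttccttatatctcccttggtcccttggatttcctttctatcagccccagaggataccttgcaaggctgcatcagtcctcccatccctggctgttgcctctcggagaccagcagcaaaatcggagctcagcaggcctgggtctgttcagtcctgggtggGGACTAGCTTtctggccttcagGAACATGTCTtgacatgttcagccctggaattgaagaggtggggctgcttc
By exact match to the consensus, the window of Cdkn1a held 2 half-sites with 12 bases between them, and those of Trp53 and Mdm2 held 1 each. The stretch tgacatgttc, directly after the downstream half-site of Cdkn1a, missed the consensus by 1 letter and was not counted. The half-site reads the same on both strands and shared no letters with the other motifs searched. Of 32851 mouse promoter windows of this length, 7.13% held at least 1 half-site and 0.259% held at least 2. The window of the other start of Cdkn1a (chr17:29093519-29093768, plus strand) held no half-site and 2 GC boxes (GGGCGG on either strand). These matches are a description of the letters, and binding was not measured.

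Cdkn2a has 2 annotated starts with separate first exons, for its separate reading frames, and both windows are shown. A single array target stands for the gene. Which of its probes match the p16 or the Arf transcript was not examined, so the level is not assigned to either. The capitals mark the GC box. The windows are chr4:89294620-89294869 and chr4:89282193-89282442, both on the minus strand.
Cdkn2a, upstream start: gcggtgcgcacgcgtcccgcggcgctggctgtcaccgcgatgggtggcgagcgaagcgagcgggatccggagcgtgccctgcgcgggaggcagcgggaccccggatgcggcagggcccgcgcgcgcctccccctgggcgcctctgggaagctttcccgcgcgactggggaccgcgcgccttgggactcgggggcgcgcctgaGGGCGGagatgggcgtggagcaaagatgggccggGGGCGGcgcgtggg
Cdkn2a, downstream start: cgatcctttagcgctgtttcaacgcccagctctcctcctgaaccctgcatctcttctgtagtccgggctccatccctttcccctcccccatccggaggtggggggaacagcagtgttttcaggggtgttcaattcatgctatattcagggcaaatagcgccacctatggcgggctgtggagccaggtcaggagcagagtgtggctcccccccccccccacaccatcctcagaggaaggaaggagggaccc
The upstream window held 40 CpG dinucleotides and 2 GC boxes, and the downstream window held 7 CpG dinucleotides and no GC box, against a median of 6 CpG dinucleotides over all windows. GC boxes were found in 32.7% of all windows and in 7 of the 12 windows of 8 of the 10 genes. No window of Ccnd1 or Ccnd2 was used here. The letters of a TATA box (TATAAA), on either strand and at any position, were found in 1 of the 12 windows and in 12.4% of all. That match, in the window of Trp53, was on the opposite strand and at the end far from the start. The E2F core (TTTNNCGC, on either strand) was found in 3 of the 12, which were those of Mdm2 and both of Cdkn2a, and in 4.28% of all.

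The level of a gene is the log2 of the mean intensity of its 3 probes minus the mean of 10 seminal proteins on the same plate, which the authors took as the zero of expression. A gene counted as detected where its level, averaged over the 4 plates, exceeded 2 SD of the seminal proteins, which was 0.37 ± 0.11 for the AtT20-labelled plates, 0.56 ± 0.15 for BV2 and 0.74 ± 0.10 for N18 (log2, SD, n = 4 plates). By this rule 3 of the 10 genes were detected on the AtT20-labelled plates, 6 in BV2 and 6 in N18, beside 35.0%, 53.3% and 55.4% of all genes and targets in the same order. Trp53, Mdm2, Cdkn1a, Ccnd1 and Ccnd3 were detected in both BV2 and N18. Ccnd2 was detected in BV2 and Cdkn2c in N18, and the 3 detected on the AtT20-labelled plates were Cdkn2b, Cdkn2c and Ccnd3. Cdkn1b passed in none of the lines, and Cdkn2a did not pass in any, though it lay close to the threshold in N18.

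The arrays of the AtT20-labelled plates stood apart from the other 8. The interquartile range over their probes was 0.378 to 0.782 on the log2 scale, against 1.28 to 1.73 on the BV2 arrays and 1.91 to 2.21 on the N18 arrays. Pomc, the corticotroph hormone precursor, was not detected on them at a level of 0.29 ± 0.26 (SD, n = 4), nor was Tbx19, the corticotroph factor, at 0.02 ± 0.06, and 2 of 11 corticotroph markers passed. The part of these properties in the differences from AtT20 was not tested, and these plates are called by their label below. The microglial markers passed for 11 of 15 genes in BV2, 3 in N18 and 2 on the AtT20-labelled plates, and the neuroblastoma markers for 14 of 16 in N18, 7 in BV2 and 8 on the AtT20-labelled plates, where the neurofilament gene Nefl was highest at 4.46. Of the 11 corticotroph markers, 6 passed in N18 and 2 in BV2. The lysozyme gene Lyz2 was at 5.97 ± 0.25 in BV2 and the neuronal tubulin gene Tubb3 at 4.58 ± 0.17 in N18 (SD, n = 4). The fit below uses 1 spread for the 3 lines. On simulated data in which each line had its own spread, it made more false calls against AtT20 than the adjustment aims at. With 200 of 25128 genes and targets changed by a log2 of 1 or 0.5, 45.3% and 46.1% of the calls in BV2 against AtT20 were false. In N18 against AtT20 the false shares were 35% and 47.1%. The adjusted p of the fit against AtT20 may therefore be too small. With weights by line, 19 of the 19 calls of the 10 genes against AtT20 were kept, with an adjusted p of up to 0.0264. The fit with weights was not run on simulated data. Arrays within a line correlated with r = 0.898 to 0.988 over all probes, without normalization.

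**Figure D1:**
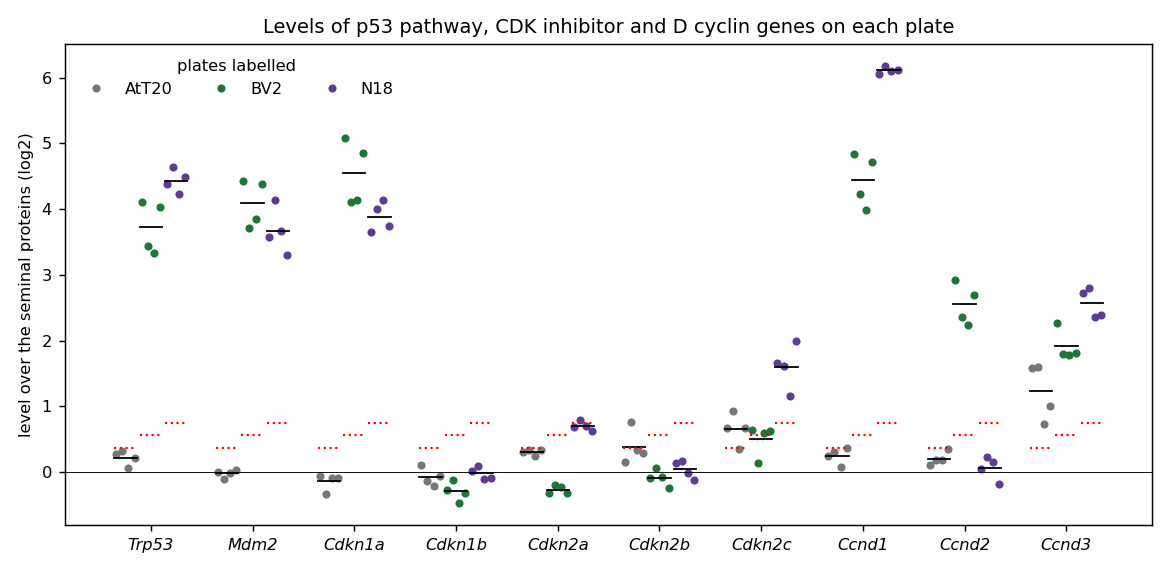
Level over the seminal proteins (log2, y axis) of the 10 genes (x axis) on each of the 4 AtT20-labelled plates (gray), BV2 (green) and N18 (purple). Black bars are means and dotted red bars are the detection threshold of the line. Trp53, Mdm2, Cdkn1a and Ccnd1 sit between 3.31 and 6.18 on the BV2 and N18 plates and below 0.37 on every plate labelled AtT20, while Ccnd2 is high on the BV2 plates alone.

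Trp53 was at a level of 4.11, 3.43, 3.34 and 4.03 on the 4 BV2 plates and at 4.38, 4.65, 4.22 and 4.49 on the 4 N18 plates. On the AtT20-labelled plates it was at 0.28, 0.31, 0.06 and 0.21, all below the threshold. All BV2 and N18 plates therefore lay above all AtT20-labelled plates, and the lowest N18 plate lay above the highest BV2 plate.

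After quantile normalization of the 12 arrays, Trp53 was 2.65 higher in BV2 than on the AtT20-labelled plates (log2, SE 0.11, limma adjusted p = 2.82e-12) and 2.73 higher in N18 (SE 0.11, adjusted p = 2.05e-12). Since the gene was below the threshold on the latter plates, its signal was at least 3.9-fold higher in BV2 and at least 5.1-fold higher in N18. Such a bound sets the mean of the bright line against the higher of the threshold and the measured value on each plate of the dim line, and takes the smallest result of 3 scalings (quantile normalization, none, and levels relative to the seminal proteins). Between N18 and BV2 the normalized values overlapped, with a difference of 0.08 (95% interval -0.15 to 0.31, adjusted p = 0.591). This call depended on the scaling, since the difference was 0.68 without normalization (adjusted p = 0.011) and 0.71 relative to the seminal proteins (adjusted p = 0.0195), each higher in N18. The 3 probes of Trp53 had mean levels of up to 3.88 in BV2 and between 4.07 and 4.64 in N18.

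Mdm2 was at 4.42, 3.71, 3.85 and 4.38 in BV2, at 3.58, 4.14, 3.66 and 3.31 in N18, and between -0.11 and 0.03 on the AtT20-labelled plates. The levels in BV2 and N18 overlapped, and both lay far above the third line. Against the AtT20-labelled plates the signal was at least 5.1-fold higher in BV2 and at least 3.1-fold higher in N18, with differences of 3.64 (SE 0.13, adjusted p = 1.01e-12) and 2.53 (SE 0.13, adjusted p = 6.15e-11). After quantile normalization Mdm2 was lower in N18 than in BV2 by a log2 difference of -1.11 (SE 0.13, adjusted p = 3.85e-06), a 2.16-fold difference. Each of its 3 probes was lower in N18, by -1.14, -1.22 and -0.80. The call was lost without normalization (-0.45, adjusted p = 0.12) and relative to the seminal proteins (-0.42, adjusted p = 0.163), with the direction kept.

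Cdkn1a, the p53 target whose product p21 halts the cycle, was at 5.08, 4.11, 4.14 and 4.86 in BV2 and at 3.65, 4.01, 4.13 and 3.75 in N18. It was at -0.06, -0.33, -0.10 and -0.10 on the AtT20-labelled plates. Of the 4 BV2 plates, 3 lay above every N18 plate and 1 lay within the N18 range. The signal was at least 7.0-fold higher in BV2 and at least 3.5-fold higher in N18 than on the AtT20-labelled plates (differences of 4.45 and 3.06, SE 0.16 each, adjusted p = 6.11e-13 and 4.23e-11). Between the lines in which it was detected, Cdkn1a was lower in N18 by -1.39 (95% interval -1.72 to -1.06, adjusted p = 1.68e-06), a 2.63-fold difference, and this call was kept without normalization (-0.69, adjusted p = 0.00917) and relative to the seminal proteins (-0.66, adjusted p = 0.0377). All 3 probes were lower in N18, by -1.24, -1.64 and -1.53.

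Across 22 alternative settings the difference of Trp53 between N18 and BV2 lay between 0.03 and 0.71, while that of its target Mdm2 lay between -1.22 and -0.42 and that of its target Cdkn1a between -1.64 and -0.66. For comparison, 32 known p53 target genes, Cdkn1a and Mdm2 among them, were counted in the same fit. Between N18 and BV2, 18 were lower in N18, 4 were higher and 10 did not pass, with a median difference of -0.42 against -0.06 over all genes and targets, of which 21.9% were lower and 19.0% higher. The count depended on the scaling, with 10 lower and 7 higher without normalization and 11 lower and 8 higher relative to the seminal proteins, while over all genes and targets these scalings gave 1905 lower and 7714 higher, and 3296 lower and 9754 higher, against 5495 and 4775 after quantile normalization. The 3 with the largest differences downward were Ccng1, a cyclin-like regulator (-2.33, SE 0.13, adjusted p = 3.25e-10), Bax, a pore-forming inducer of apoptosis (-2.06, SE 0.13, adjusted p = 2.06e-09) and Tap1, a peptide transporter of antigen presentation (-1.97, SE 0.21, adjusted p = 9.93e-07). Upward they were Sesn1, a stress-induced sestrin (1.78, SE 0.12, adjusted p = 4.32e-09), Rrm2b, a ribonucleotide reductase subunit (0.50, SE 0.14, adjusted p = 0.00832) and the DNA repair nuclease Ercc5 (0.49, SE 0.11, adjusted p = 0.00156). These 6 kept their direction under all 3 scalings. The number of targets detected was 10 for the AtT20-labelled plates, 23 for BV2 and 20 for N18. Tap1 is also induced by interferon, and p53 is not the sole regulator of any gene on this list.

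Of 29 measured genes of the p53 family and its regulators, Trp53, Mdm2 and Cdkn2a among them, 8 were higher in N18 than in BV2, 8 were lower and 13 did not pass, beside 19.0% higher and 21.9% lower over all genes and targets. Without normalization 13 were higher and 1 lower, and relative to the seminal proteins 12 and 2, and the counts over all genes and targets given above moved toward higher in N18 as well. Atm, the kinase that signals DNA breaks to p53, was at a level of 2.17 ± 0.29 in BV2 and 1.74 ± 0.18 in N18 (SD, n = 4), with a difference of -0.85 (SE 0.12, adjusted p = 3.31e-05). The acetyltransferase Kat5 was lower in N18 by -1.31 (SE 0.15, adjusted p = 1.68e-06). Trp53bp1, a DNA break adaptor, was higher by 1.24 (SE 0.14, adjusted p = 2.07e-06), Trp53bp2, which directs p53 toward apoptosis, by 0.95 (SE 0.11, adjusted p = 3.55e-06), and the histone deacetylase Hdac1 by 0.90 (SE 0.10, adjusted p = 1.39e-06). All 5 kept their sign under the 3 scalings.

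**Figure D2:**
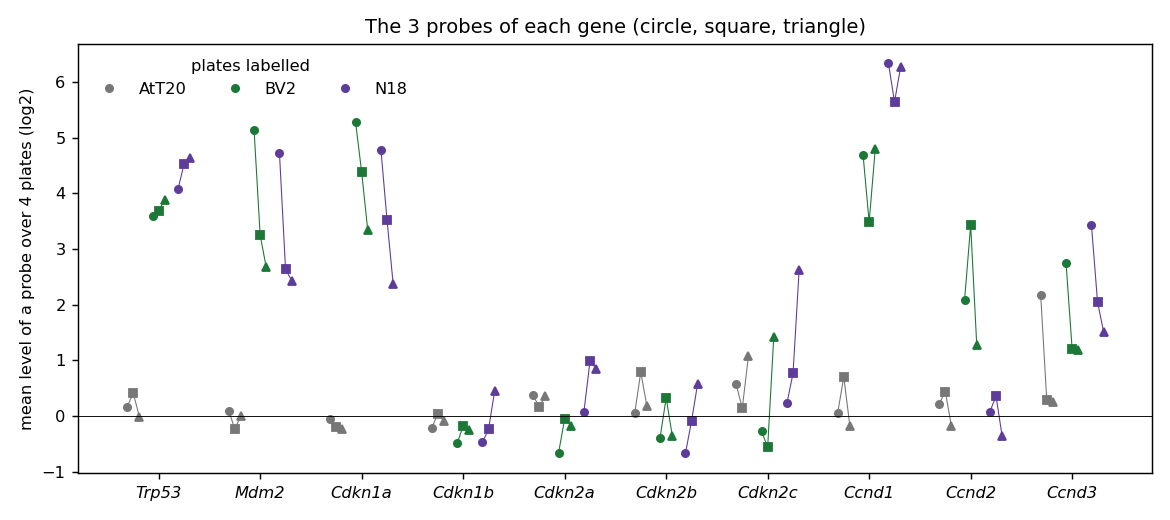
Mean level over 4 plates (log2, y axis) of each of the 3 probes (circle, square, triangle) of the 10 genes (x axis) on AtT20-labelled plates (gray), BV2 (green) and N18 (purple), lines joining the probes of a gene. All 3 probes of Trp53, Mdm2, Cdkn1a and Ccnd1 are high in BV2 and N18, while 1 probe of Cdkn2c in BV2 and N18, and 1 of Ccnd3 on the AtT20-labelled plates, lies well above the other 2.

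The other Cip/Kip gene, Cdkn1b, whose product p27 accumulates in resting cells, was not detected in any of the lines. Its levels were between -0.21 and 0.10 on the AtT20-labelled plates, between -0.48 and -0.12 in BV2 and between -0.11 and 0.09 in N18, all 12 below the threshold of the line. Hence no fold is given for Cdkn1b. N18 and BV2 did not differ past the test (0.15, 95% interval -0.11 to 0.41, adjusted p = 0.352), though the difference passed relative to the seminal proteins (0.27, adjusted p = 0.0111), with the 8 arrays of the pair alone (adjusted p = 0.0256), with these normalized alone (adjusted p = 0.0187) and with weights by line (adjusted p = 0.0483), and its adjusted p was up to 0.922 with the median of the probes. The p57 gene Cdkn1c, of the same family, was likewise not detected in any line, at 0.02 ± 0.25, 0.20 ± 0.11 and -0.02 ± 0.15 for AtT20, BV2 and N18.

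Among the Ink4 genes, Cdkn2c was detected in N18, at 1.65, 1.62, 1.16 and 1.99. It was at 0.64, 0.14, 0.59 and 0.63 in BV2, with a mean of 0.50 ± 0.24 just under the threshold of 0.56, and at 0.66, 0.92, 0.35 and 0.67 on the AtT20-labelled plates, with a mean of 0.65 ± 0.23 above theirs. All N18 plates lay above all others on this scale, and the other lines overlapped. After quantile normalization Cdkn2c was higher in N18 than in BV2 by 0.57 (SE 0.13, adjusted p = 0.00158), at least 1.4-fold, and all 3 probes were higher, by 0.33, 0.93 and 0.53. The highest of the 3 probes in each line had a mean level of 1.07, 1.42 and 2.62 in AtT20, BV2 and N18. When the probes were summarized by their median, Cdkn2c was no longer detected in N18 (0.74 against a threshold of 0.78).

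Cdkn2a was at 0.68, 0.79, 0.70 and 0.62 in N18, with a mean of 0.70 ± 0.07 just under the threshold of 0.74, and with 2 of the 4 plates above the threshold of the plate. It was detected there under 3 alternatives, which were the median of the probes, the seminal proteins without the highest of them, and leaving out plate 1. In BV2 it was between -0.33 and -0.20, and on the AtT20-labelled plates between 0.24 and 0.33. The 3 lines did not overlap in level. Cdkn2a was 0.63 higher in N18 than in BV2 (SE 0.10, adjusted p = 5.12e-05), with each probe higher, by 0.56, 0.65 and 0.67, and the sign was kept under all scalings. Since the gene was below the threshold in both lines, no fold is given.

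Cdkn2b lies next to Cdkn2a and gives p15, which is induced by transforming growth factor beta. Its level was 0.16, 0.75, 0.33 and 0.29 on the AtT20-labelled plates, with a mean of 0.38 ± 0.26 barely above the threshold of 0.37, and 1 of its 3 probes was above it. It did not pass there under 9 of 12 alternatives, and without plate 2 its mean was 0.26. It was between -0.24 and 0.06 in BV2 and between -0.13 and 0.17 in N18, and was not detected in either. N18 and BV2 did not differ past the test (0.00, 95% interval -0.34 to 0.34, adjusted p = 0.999).

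The remaining Ink4 gene, Cdkn2d (p19), was detected in all 3 lines, at 0.48 ± 0.23, 0.91 ± 0.14 and 1.89 ± 0.26 for AtT20, BV2 and N18, and was higher in N18 than in BV2 by 0.39 (SE 0.13, adjusted p = 0.0237). Of the 7 measured CDK inhibitor genes, 3 were higher in N18 than in BV2 (Cdkn2a, Cdkn2c and Cdkn2d), 1 was lower (Cdkn1a) and 3 did not pass. Cdkn2a, Cdkn2c and Cdkn2d were thus all higher in N18 under each of the 3 scalings. Of these, Cdkn2a was below the threshold in both lines and is not assigned to p16, and Cdkn2c was below it in BV2. Cdkn1a was lower under each of the 3 scalings, while Cdkn1b, of the same Cip/Kip family, passed relative to the seminal proteins, as higher in N18.

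Mtap, the methylthioadenosine phosphorylase gene beside Cdkn2a and Cdkn2b, was at a level of 2.75 ± 0.33 in BV2, 4.10 ± 0.30 in N18 and 0.01 ± 0.07 on the AtT20-labelled plates (SD, n = 4). It was detected in both lines in which Cdkn2a and Cdkn2b were not. Of the other neighbors, Dmrta1 and the interferon genes Ifnb1 and Ifne were not detected in any line, and Ifna1, whose probes may also bind the other interferon alpha genes, was at 0.86 ± 0.24 in BV2 and 0.93 ± 0.11 in N18. The RNA-binding protein gene Elavl2 was at 1.40 ± 0.58 on the AtT20-labelled plates, at -0.09 ± 0.07 in BV2 and at 2.13 ± 0.30 in N18, and Klhl9 was detected in N18 alone, at 0.99 ± 0.22. DNA copy number was not measured.

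Of 30 regulators of the Ink4 and Arf genes, 12 were higher in N18 than in BV2, 6 were lower and 12 did not pass, with a median difference of 0.21, beside 19.0% higher, 21.9% lower and a median of -0.06 over all genes and targets. Without normalization 18 were higher and 3 lower (7714 and 1905 over all), and relative to the seminal proteins 19 and 2 (9754 and 3296 over all). Myc, which induces Arf, was at 5.11 ± 0.31 in N18, 0.36 ± 0.07 in BV2 and 2.14 ± 0.81 on the AtT20-labelled plates, and was 4.07 higher in N18 than in BV2 (SE 0.16, adjusted p = 5.09e-12). The polycomb genes Cbx7 and Cbx6, of which Cbx7 is a repressor of the Ink4 and Arf genes, were higher in N18 by 1.89 and 1.62 (SE 0.12 each, adjusted p = 1.49e-09 and 1.63e-08). Junb, an inducer of p16, was lower by -2.70 (SE 0.17, adjusted p = 1.45e-09), Ets2, another, by -2.18 (SE 0.17, adjusted p = 1.85e-08), and the histone demethylase Kdm6a by -0.83 (SE 0.12, adjusted p = 3.34e-05).

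**Figure D3:**
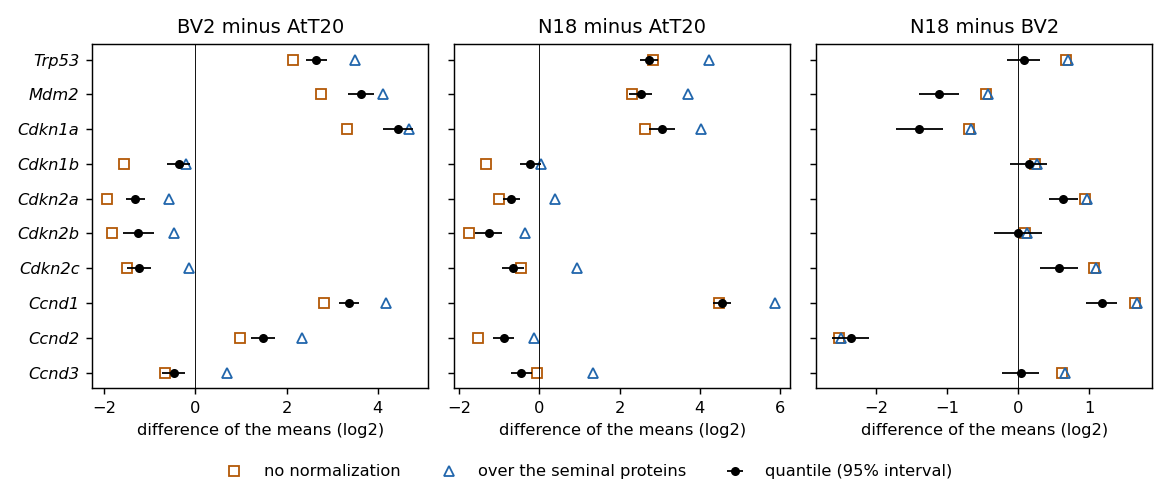
Difference between lines (log2, x axis) of the 10 genes (y axis) in the 3 comparisons. Filled circles are limma estimates after quantile normalization with 95% intervals, open squares are differences without normalization, and open triangles are differences of the levels over the seminal proteins. The scalings agree in sign for Trp53, Mdm2, Cdkn1a and Ccnd1 in every comparison. They differ in sign for Ccnd3 against AtT20 in both lines, and for Cdkn1b, Cdkn2a and Cdkn2c in N18 against AtT20. Between N18 and BV2 they differ in sign for Cdkn2b, whose differences are near 0.

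The D cyclins set the lines apart from each other. Ccnd1 was at 6.06, 6.18, 6.11 and 6.12 in N18, at 4.84, 4.22, 3.98 and 4.71 in BV2, and at 0.24, 0.30, 0.08 and 0.37 on the AtT20-labelled plates. The 3 lines did not overlap. It was 1.18 higher in N18 than in BV2 (95% interval 0.96 to 1.40, adjusted p = 1.11e-07), a 2.27-fold difference, and was called under all 22 alternatives, between 1.11 and 1.68. Its 3 probes were higher in N18 by 1.15, 1.73 and 0.95, and 1 of its 12 probe values on the N18 plates was at the limit of the scanner, so that its true intensity may be higher. Against the AtT20-labelled plates the signal was at least 6.5-fold higher in BV2 and at least 19.2-fold higher in N18 (differences of 3.37 and 4.56, SE 0.11 each, adjusted p = 1.84e-13 and 1.27e-14). By the correlation of normalized values over the 12 arrays with 12171 detected genes, the genes most like Ccnd1 were the tetraspanin gene Cd9 (r = 0.998), the adaptor gene Shc1 (r = 0.997) and Eif4enif1 (r = 0.997). The arrays fall into 3 lines, so these values describe likeness of the order of 3 means.

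Ccnd2 had another order. It was at 2.92, 2.36, 2.23 and 2.70 in BV2, at 0.05, 0.22, 0.15 and -0.18 in N18, and at 0.11, 0.18, 0.18 and 0.34 on the AtT20-labelled plates. All 4 BV2 plates were above all the others, and the gene was not detected outside BV2. Its difference between N18 and BV2 was -2.36 (95% interval -2.63 to -2.10, adjusted p = 1.81e-10), at least 3.5-fold, and each of the 3 probes was lower in N18, by -1.86, -3.02 and -1.45. The difference was called under all 22 alternatives, between -3.44 and -1.86. In BV2 the signal was at least 1.7-fold higher than on the AtT20-labelled plates (1.48, SE 0.13, adjusted p = 2.17e-08). Among the genes most like Ccnd2 were the metallothionein gene Mt1 (r = 0.996) and the metalloprotease gene Adam8 (r = 0.995).

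Ccnd3 was detected in all 3 lines. It was at 2.73, 2.80, 2.35 and 2.39 in N18, at 2.26, 1.80, 1.79 and 1.81 in BV2, and at 1.59, 1.60, 0.74 and 1.00 on the AtT20-labelled plates. The lowest N18 plate lay above the highest BV2 plate, and the lowest BV2 plate above the highest plate labelled AtT20. After quantile normalization N18 and BV2 did not differ past the test (0.04, 95% interval -0.22 to 0.29, adjusted p = 0.84), whereas without normalization Ccnd3 was 0.62 higher in N18 (adjusted p = 0.0177) and relative to the seminal proteins 0.65 higher (adjusted p = 0.0205). Against AtT20 the direction itself turned with the scaling, from -0.48 in BV2 and -0.45 in N18 (SE 0.12 each, adjusted p = 0.00171 and 0.0029) to 0.68 and 1.34 relative to the seminal proteins. On the AtT20-labelled plates, 1 of its 3 probes was above the threshold, at a mean level of 2.17 beside 0.28 and 0.26 for the others. The genes most like Ccnd3 were Dcaf1 (r = 0.95), B9d1 (r = 0.942) and Maml3 (r = 0.941).

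**Figure D4:**
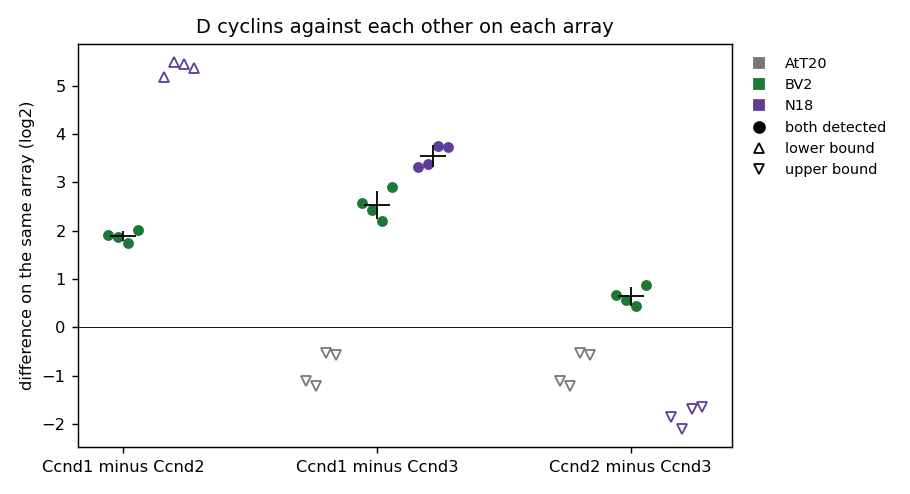
Difference between the log2 values of 2 D cyclin genes on the same array (y axis, log2) for the 3 pairs (x axis), with 1 point per plate labelled AtT20 (gray), BV2 (green) or N18 (purple). Filled circles are plates of lines in which both genes were detected, with the mean and SD in black, and open triangles are bounds where 1 gene was not detected (up, lower bound; down, upper bound). Ccnd1 minus Ccnd2 is at most 2.01 on the BV2 plates and at least 5.19 on the N18 plates. Ccnd2 minus Ccnd3 is at least 0.45 on the BV2 plates and at most -1.65 on the N18 plates.

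Differences within an array compare these orders without any scaling between arrays. They are free of a shift of a whole array, but not of the spread of its values. The interquartile range was 1.28 to 1.73 on the BV2 arrays and 1.91 to 2.21 on the N18 arrays. Its part in the changes below was not tested. Different probes bind differently, so the change of a difference within an array between lines is what can be read. Ccnd1 minus Ccnd3, both detected in BV2 and N18, was 2.53 ± 0.29 in BV2 and 3.55 ± 0.22 in N18 (log2, SD, n = 4), and the plates of the lines did not overlap. Where Ccnd2 was not detected, the higher of its level and the threshold of the plate was used, which gives a bound. Ccnd1 minus Ccnd2 was 1.89 ± 0.11 in BV2 and at least 5.38 in N18 as a mean, with a lowest bound of 5.19 on the 4 plates against a highest value of 2.01 in BV2. Ccnd2 minus Ccnd3 was 0.64 ± 0.19 in BV2 and at most -1.83 in N18, with plates from -2.10 to -1.65. Relative to Ccnd1 and to Ccnd3, Ccnd2 was lower on each N18 plate than on any BV2 plate. The Ccnd1 values at or near the limit of the scanner in N18 may be too low. The bound on Ccnd1 minus Ccnd2 holds in that case, and Ccnd1 minus Ccnd3 in N18 may be larger than given. Neither Ccnd1 nor Ccnd2 was detected on the AtT20-labelled plates, so no difference between them is given there.

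The kinase partners were measured as well. Cdk4 was at 4.61 ± 0.47 in BV2, 5.43 ± 0.15 in N18 and -0.10 ± 0.03 on the AtT20-labelled plates, and its difference between N18 and BV2 did not pass (0.25, SE 0.11, adjusted p = 0.0711). Cdk6 had the order of Ccnd2, at 1.99 ± 0.43 in BV2, 0.04 ± 0.11 in N18 and 0.10 ± 0.16 on the AtT20-labelled plates, and was lower in N18 than in BV2 by -1.82 (SE 0.15, adjusted p = 4.87e-08). Cdk2, the partner of cyclins E and A, was higher in N18 by 1.07 (SE 0.10, adjusted p = 3.45e-07), as was Wee1, an inhibitory kinase of CDKs, by 1.11 (SE 0.13, adjusted p = 4.4e-06), and E2f4, a repressor E2F, was lower by -0.95 (SE 0.11, adjusted p = 3.61e-06). Of 32 genes of the G1 to S machinery, the D cyclins included, 11 were higher in N18, 5 were lower and 16 did not pass, with a median of 0.09, beside 19.0% higher and 21.9% lower over all genes and targets. Without normalization 19 were higher and 2 lower (7714 and 1905 over all), and relative to the seminal proteins 19 and 3 (9754 and 3296 over all). Of 19 genes that E2F factors drive in S phase, 7 were higher in N18 (by the most Rrm1, Tk1 and Slbp, at 0.97, 0.95 and 0.61), 5 were lower (by the most Mcm5, Pola1 and Ung, at -1.02, -0.70 and -0.60) and 7 did not pass, beside the same shares of all genes and targets. Under both other scalings no gene of this list passed as lower in N18, with 10 higher without normalization and 9 relative to the seminal proteins, and Mcm5, Pola1 and Ung kept their sign there without passing.

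**Figure D5:**
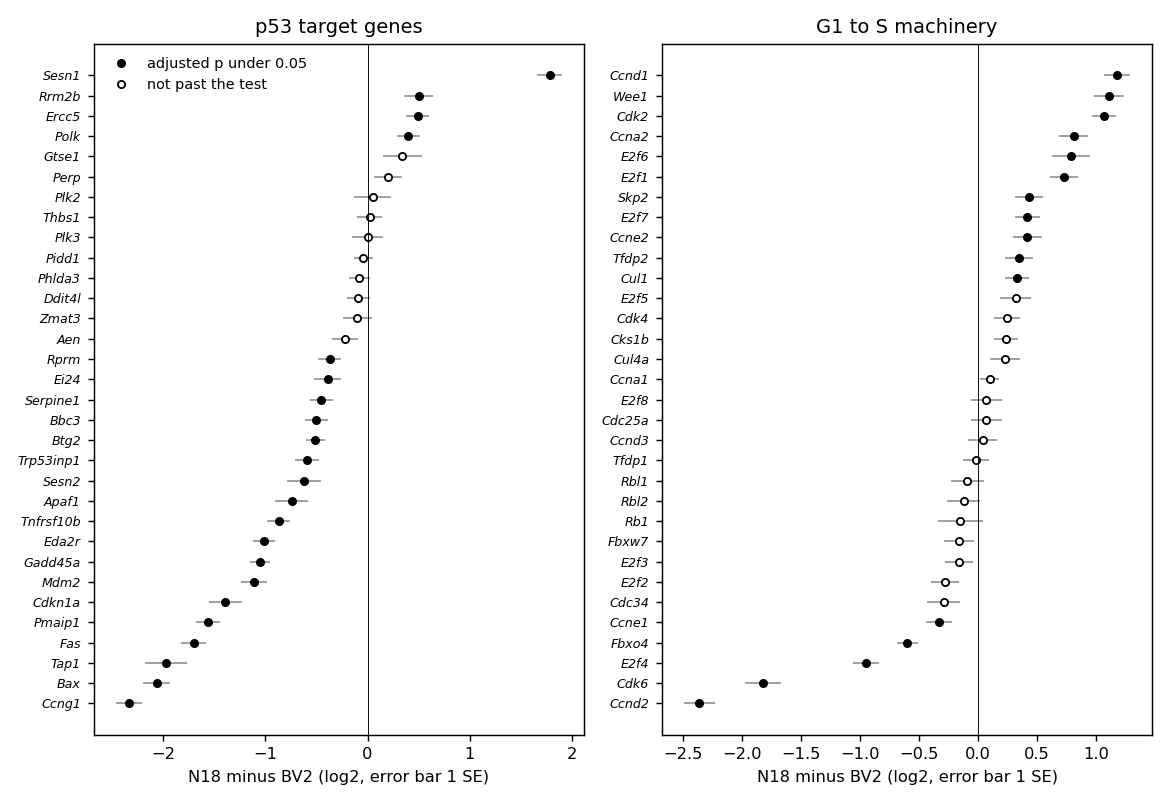
Difference between N18 and BV2 after quantile normalization (log2, x axis, error bars 1 SE) of 32 p53 target genes and 32 genes of the G1 to S machinery (y axes). Filled points passed the test over all genes and targets, with 18 p53 targets lower in N18 and 4 higher, and 11 genes of the G1 to S machinery higher and 5 lower, Ccnd2 and Cdk6 at the low end.

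Over the 10 genes, 3 were higher in N18 than in BV2 (Ccnd1, Cdkn2a and Cdkn2c), 3 were lower (Ccnd2, Cdkn1a and Mdm2) and 4 did not pass, beside 19.0% higher and 21.9% lower over all genes and targets. Without normalization 5 were higher and 2 lower (7714 and 1905 over all), and relative to the seminal proteins 6 and 2 (9754 and 3296 over all). Between BV2 and the AtT20-labelled plates, 5 were higher in BV2 and 5 lower, beside 26.6% and 47.0% of all genes and targets, and between N18 and these plates 4 were higher in N18 and 5 lower, beside 27.8% and 48.6%. The 5 higher in BV2 were Trp53, Mdm2, Cdkn1a, Ccnd1 and Ccnd2, and the first 4 were also those higher in N18. Those lower in BV2 were Cdkn1b, Cdkn2a, Cdkn2b, Cdkn2c and Ccnd3, and those lower in N18 were Cdkn2a, Cdkn2b, Cdkn2c, Ccnd2 and Ccnd3. Of the 10 seminal proteins, taken as the zero of expression, 6 passed as lower in BV2 and 8 in N18 in the same fit. Cdkn1b and Cdkn2a in BV2, and Cdkn2a and Ccnd2 in N18, were below the threshold on both sides of the comparison. These lower calls therefore do not show lower expression by themselves. The 2 comparisons share the AtT20 arrays. The 9 differences with a higher level in BV2 or N18 kept their direction and call under all 21 alternatives. The lower calls did not keep theirs alike, since 3 were lower in BV2 and 1 in N18 relative to the seminal proteins, and over all genes and targets the split of 6687 higher and 11808 lower in BV2 became 2940 and 18762 without normalization and 12668 and 4413 relative to the seminal proteins. In N18 the split of 6981 and 12211 became 5012 and 15846, and 15255 and 4094. The median of all genes and targets was -0.23, -1.08 and 0.28 in BV2 against AtT20 after quantile normalization, without it and relative to the seminal proteins, -0.25, -0.86 and 0.54 in N18 against AtT20, and -0.06, 0.15 and 0.18 in N18 against BV2. Set against these medians, the 4 genes higher in both lines lay above the median by 2 or more log2 units in every scaling.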

How the data were processed

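Total RNA of 12 plates was hybridized to single-color arrays of 72000 probes (60-mers of the MM8 design). The deposited values are log2 intensities of Cy3, which the authors made from the scanner signal, without background subtraction or normalization between arrays as far as the values show. Symbols came from a RefSeq table (GRCm38.p6), of which the names were used, and 17780 of 25631 targets (69.4%) were matched. Linear intensities were averaged over the probes of a target, log2 values were averaged over the targets of a gene, and 25128 genes and targets remained.

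For the comparison of lines the 12 arrays were quantile normalized and fitted in limma 3.58.1 under R 4.3.3 (lmFit, then eBayes with a trend), with 1 estimate of the spread for the 3 lines and Benjamini-Hochberg adjustment over 25128 genes and targets, and calls were made at an adjusted p under 0.05. Detection followed the threshold of the authors (mean plus 2 SD of 10 seminal proteins). This was repeated with unnormalized values, with levels relative to the seminal proteins, with normexp (offset 50), with the mean of the log2 probes or their median, and with genes above the threshold, the 8 arrays of a pair, a replicate block and leaving out each plate. For detection, 3 SD, 1063 olfactory receptor genes as controls, the omission of the highest seminal protein, quantile normalized values, both summaries of the probes, a demand on all 4 plates and leaving out each plate were tried. Settings added once the data had been seen were a demand for at least 2 probes above the threshold, quantile normalization of the 8 BV2 and N18 arrays alone, and weights by line. The fit was tested on simulated data. It kept to the error rate aimed at, or close to it, for N18 against BV2, but it made too many false calls against AtT20 where each line had its own spread. Windows before gene starts were searched in Python 3.11.15 with pandas 2.3.3.

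The 10 genes and all lists (p53 targets and regulators, CDK inhibitors, G1 to S machinery, E2F-driven genes, regulators and neighbors of Cdkn2a, cell markers) were chosen with earlier results of these data known. Named genes are the 10, the 3 largest differences in each direction between N18 and BV2 of a list other than the cell markers (those of the markers and of the comparisons with AtT20, which the rule also named, are not all given), the neighbors of Cdkn2a, the 3 genes most like each D cyclin (1 of them is not reported here), and Cdk4, Cdk6, Atm, Cdkn1c, Cdkn2d, Pomc, Tbx19, Nefl, Lyz2 and Tubb3, of which Cdk4, Cdkn1c, Pomc and Tbx19 were named after their values were seen. Signal over background and 4 arrays per line limit the precision. Each slide carries 4 arrays, and which plates shared one is not given in the sources used here, so that slide and line cannot be told apart.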

Additional observations from a re-analysis of the deposited data

Results flagged for a closer look

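Of 30 sets of 4 plates (10 genes in 3 lines), 3 held a plate that stood far from the other 3, and chance alone flags about 1 in 20. Cdkn1a was at a level of -0.33 on plate 2 labelled AtT20, against -0.10 to -0.06 on the others, all below the threshold. Cdkn2c was at 0.14 on BV2 plate 2, against 0.59 to 0.64 on the others, and its mean in BV2 lay just under the threshold with this plate in it. Ccnd3 was at 2.26 on BV2 plate 1, against 1.79 to 1.81 on the others, all above the threshold.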

How the results depend on the processing

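Of 634 differences of the 10 genes under an alternative setting, 598 kept direction and call, 10 lost the call, 10 gained it and 16 changed sign. Relative to the seminal proteins, the sign changed for Ccnd3 in BV2 against AtT20 (0.68) and, in N18 against AtT20, for Cdkn1b (0.055, main value not called), Cdkn2a (0.39), Cdkn2c (0.95) and Ccnd3 (1.34). The main differences of Cdkn2b and Ccnd3 between N18 and BV2 were near 0 and not called, and theirs changed sign too: Cdkn2b became 0.10 without normalization, 0.13 relative to the seminal proteins, 0.015 with normexp, 0.10 with the median of the probes, 0.005 with quantile normalization of 8 arrays alone, and ran from -0.056 to 0.051 over the omission of each plate in turn (above 0 without BV2 plates 2 or 3 or N18 plates 3 or 4), and Ccnd3 ran from -0.044 to 0.094 (below 0 without BV2 plate 4 or N18 plate 1).

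Of the 10 genes, 1 was detected on the plates labelled AtT20 with olfactory receptor controls and 1 with at least 2 probes above the threshold, beside 5578 and 4695 of all genes and targets, and in BV2 olfactory receptor controls left 7863 of all. The count lower in BV2 than in AtT20 was 3 relative to the seminal proteins, with the median of the probes, and among genes above the threshold, where fewer genes are tested. Relative to the seminal proteins, 7 were higher and 1 lower in N18 than in AtT20, and 6 were higher in N18 than in BV2, against 5 without normalization. Over all genes and targets, those called in BV2 against AtT20 were 2940 higher and 18762 lower without normalization, 12668 and 4413 relative to the seminal proteins, and 7042 lower among genes above the threshold. In N18 against AtT20 they were 15255 higher and 4094 lower relative to the seminal proteins, and 7046 lower among genes above the threshold. In N18 against BV2 they were 7714 higher and 1905 lower without normalization, 9754 and 3296 relative to the seminal proteins, and 9000, 9062 and 8853 lower with the 8 arrays of the pair, with quantile normalization of these alone and with weights by line. The cause of these changes was not tested.

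Replicate numbers did not pair the samples, with correlations of same-numbered plates between -0.105 and 0.319. With a replicate block all 30 calls of the 10 genes were kept, with 3 higher and 3 lower in N18 than in BV2. Of 360 detection results, 343 were kept, 12 were lost and 5 were gained. Signal close to background limits Cdkn2a, Cdkn2b and Cdkn2c, for which a level under the threshold does not show absence of the RNA.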
